A study of Mus musculus with 17 samples.

Results

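Mammary glands labelled as a Brca1 model (BRCA) were set against wild-type (WT) glands separately in the columns labelled paired-end and in those labelled single-end. These are 7 of the 17 libraries of the series and 4 of the 8 columns of its FPKM table (a fragment count divided by the length of the transcript and by sequencing depth, so that levels can be compared between genes). Of 30843 loci, 20420 had 1 gene symbol of their own, and the 11920 of these with at least 1 FPKM in 2 or more of the 4 columns were analysed. The study compared mouse models of mammary preneoplasia by sequencing polyadenylated RNA of whole glands.

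The BRCA mice had the genotype Brca1fl11/fl11/MMTV-Cre/p53+/-. Both Brca1 alleles carry a floxed exon 11, Cre recombinase is driven by the MMTV promoter, which is active mainly in mammary epithelium, and 1 Trp53 allele is functional. Stromal, fat, muscle and immune cells of the same gland are thus not the intended site of Brca1 deletion, while the Trp53 change is carried by all cells. The labels give 2 paired-end and 2 single-end BRCA libraries. The WT mice are labelled wild type, with 1 paired-end and 2 single-end libraries. AROM (tet-op-CYP19A1MMTV-rtTA, an inducible aromatase transgene, 3 paired-end and 2 single-end libraries) and CERM (tet-op-Esr1MMTV-rtTA, an inducible estrogen receptor alpha transgene, 3 and 2) served to place the BRCA level among all 4 genotypes and, with WT, as another comparison where the text says so. All mice are labelled nulliparous females of strain C57Bl/6, and no age is given in the labels.

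Each column pools the libraries of its genotype and layout, so no spread between mice could be estimated and no difference was tested. A gene is called higher or lower here when FPKM + 1 was at least 2-fold apart, a log2 fold change of at least 1 in size, which understates the ratio of low genes. The protocol says that libraries were sequenced by both methods, so the layouts may share libraries and are not replicates. The values of both WT columns carry repeating decimals, as means of 3 values do, in 54.8% of the paired-end and 56.4% of the single-end values above 0, although the labels give 1 and 2 WT libraries; no BRCA value does. Neither WT column can be 1 of 3 values averaged in the other for every gene: paired-end WT exceeded 3 times single-end WT in 74 genes, and single-end WT exceeded 3 times paired-end WT in 116. The way the columns were pooled is unknown, as is depth. Mammary gland markers were present in all 4 columns, with luminal epithelial genes summing to 1303 and 1323 FPKM in BRCA (paired-end first, then single-end, as for every such pair here), against 1071 and 1326 FPKM in WT. Skeletal muscle genes were present too, summing to 20517 and 21238 FPKM in BRCA, against 27090.0 and 16644 FPKM in WT.

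BRCA1 is a scaffold of homologous recombination, the pathway that repairs broken DNA from the sister chromatid, and p53 halts or kills cells with damaged DNA. A whole gland mixes luminal and basal epithelium with fat, fibroblasts, vessels, muscle and immune cells. In bulk RNA, fewer cells of a type and less RNA per cell cannot be told apart. Type I interferon induces many antiviral genes through the interferon-stimulated response element (ISRE) in their promoters.

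The layouts agreed on most of the larger differences. In the paired-end columns 611 of 11920 genes (5.13%) were at least 2-fold higher in BRCA and 156 (1.31%) at least 2-fold lower. In the single-end columns 426 (3.57%) were higher and 214 (1.8%) lower. In both layouts 370 genes (3.1%) were higher and 122 (1.02%) lower, of which 52 and 20 were past 4-fold in both. The higher genes held in both layouts made up 60.6% of the paired-end and 86.9% of the single-end higher genes, and the lower ones 78.2% and 57.0% of the lower genes. Opposite calls were made for 3 genes (0.0252%). The median log2 fold change of all genes was 0.11 in the paired-end and 0.05 in the single-end columns.

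**Figure D1:**
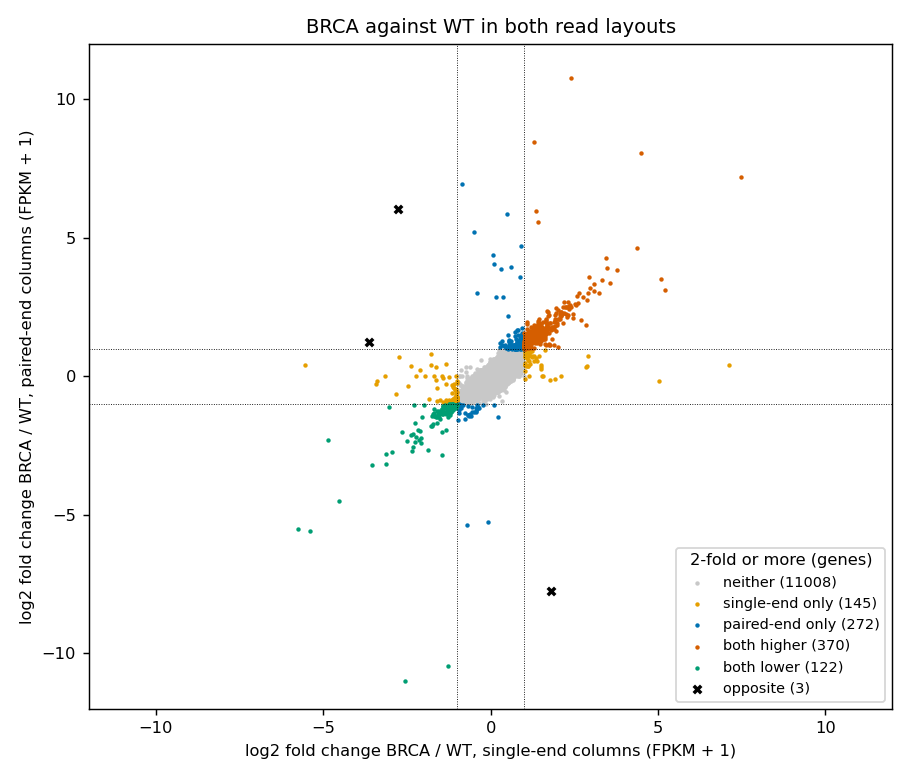
Log2 fold change of FPKM + 1, BRCA over WT, in the single-end columns (x axis) and in the paired-end columns (y axis) for the 11920 genes, 1 point a gene. Dotted lines mark 2-fold, colours mark the layouts in which a gene was past it, and the 370 and 122 genes past it the same way in both lie in the upper right and lower left corners.

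Of the 370 genes higher in both layouts, 123 reached 1 FPKM only in the BRCA columns, so that they could enter only by being higher there. Of the 122 lower in both, 14 reached it only in the WT columns. Without genes that reached it in 1 genotype only, 11399 remained, of which 247 were higher in both layouts and 108 lower. The list counts below are to be read beside these counts and the shares of 3.1% and 1.02%. BRCA was the highest of the 4 genotypes in both layouts for 315 of the 370 higher genes, and the lowest for 92 of the 122 lower genes. The shares over all genes analysed were 34.3% and 17.5%. Genes called here lie beyond WT by the call itself, so their shares cannot be weighed against those of all genes. At least 2-fold beyond each of the other 3 genotypes in both layouts were 138 genes above (1.16% of all genes) and 22 below (0.185%). The gene just inside the upper threshold was Wnt7b, with log2 fold changes of 1.01 paired-end and 1.00 single-end, and just outside it was Susd1, with 1.20 paired-end and 0.9998 single-end. At the lower threshold Csn1s2a stood just inside, with -1.0004 paired-end and -1.24 single-end, and Cldn8 just outside, with -0.99 paired-end and -1.18 single-end.

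The engineered genes were read first. Brca1 was at 3.29 FPKM paired-end and 3.28 FPKM single-end in BRCA, against 0.851 and 1.13 FPKM in WT, with log2 fold changes of 1.21 and 1.01. This FPKM covers every exon of the gene, not exon 11 alone, and is no check of the knockout. The single-end Brca1 difference was below 2-fold after median-ratio scaling (0.96), and both were below it after quantile normalization (0.96 paired-end, 0.82 single-end). Trp53 was at 12.1 and 12.3 FPKM in BRCA, against 34.5 and 41.1 FPKM in WT (log2 fold changes -1.43 and -1.66). Its levels of 20.9 to 29.5 FPKM in AROM and CERM also lay below both WT values, and against the median of the other 3 genotypes the paired-end difference was -0.98. Esr1, the estrogen receptor alpha gene, was at 6.49 and 6.59 FPKM in BRCA, against 6.89 and 7.27 FPKM in WT, and was not 2-fold apart. Pgr, the progesterone receptor gene, was at 0.667 and 0.654 FPKM in BRCA, against 1.90 and 1.92 FPKM in WT, which is -0.80 and -0.82 on the FPKM + 1 scale.

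The furthest higher gene in both layouts was a, the agouti gene, which encodes a secreted signal that switches hair pigment to yellow. It was at 258 FPKM paired-end and 227 FPKM single-end in BRCA, against 0.780 and 0.289 FPKM in WT, with log2 fold changes of 7.18 and 7.47. AROM and CERM did not exceed 0.769 FPKM. The furthest lower gene was H2-Ea-ps, the pseudogene of an MHC class II alpha chain, at 0.0673 and 0.113 FPKM in BRCA, against 48.1 and 58.4 FPKM in WT (log2 fold changes -5.52 and -5.74). It ranged from 1.60 to 28.1 FPKM in AROM and CERM. C57BL/6 mice are known to be nonagouti and to carry a deletion that silences H2-Ea. The part of genetic background in these and the other differences was not tested.

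The other higher genes included S100a9 and S100a8, the subunits of calprotectin, an abundant neutrophil protein. S100a9 was at 74.1 and 92.2 FPKM in BRCA, against 2.01 and 3.51 FPKM in WT (log2 fold changes 4.64 and 4.37). S100a8 was at 61.1 and 75.3 FPKM in BRCA, against 3.17 and 5.91 FPKM in WT (3.90 and 3.46). Marco, a scavenger receptor of macrophages, was at 13.8 and 14.5 FPKM in BRCA, against 0.0319 and 0.134 FPKM in WT. Ccl8, a chemokine for monocytes and other leukocytes, was at 294 and 351 FPKM in BRCA, against 14.2 and 31.3 FPKM in WT. These genes were ranked by their fold change in both layouts, so a BRCA level above WT in both is no added result. Marco, like the agouti gene and Ctse and Serpina1b below, reached 1 FPKM only in the BRCA columns. Ctse, an aspartic protease of the endosome, was at 13.7 FPKM in both BRCA columns, against 0.445 and 0.726 FPKM in WT. Serpina1b, which encodes an alpha-1-antitrypsin, was at 11.6 and 8.81 FPKM in BRCA, against 0.0588 and 0.272 FPKM in WT. It belongs to a family of near-identical copies that may share reads, and it was at 53.7 FPKM in the paired-end CERM column.

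Among the lower genes, Retn, the adipocyte hormone resistin, was at 87.8 and 96.7 FPKM in BRCA, against 616 and 858 FPKM in WT (log2 fold changes -2.79 and -3.14). Tnfsf11, the RANK ligand through which progesterone drives neighbouring cells to divide, was at 1.12 and 1.15 FPKM in BRCA, against 13.2 and 15.4 FPKM in WT (-2.74 and -2.93). Areg, the EGF family ligand amphiregulin that relays estrogen signals in the duct, was at 6.19 and 6.12 FPKM in BRCA, against 30.5 and 36.2 FPKM in WT (-2.13 and -2.39). BRCA was the lowest of the 4 genotypes for all 3 genes in both layouts. Gchfr, the feedback regulator of GTP cyclohydrolase, was at 1.28 and 1.16 FPKM in BRCA, against 50.3 and 48.8 FPKM in WT (-4.49 and -4.53). Rarres1, a retinoic acid-induced gene, was at 1.04 and 0.813 FPKM in BRCA, against 17.6 and 20.2 FPKM in WT. The gap junction gene Gjb6 was at 5.87 and 6.40 FPKM in BRCA, against 33.9 and 40.8 FPKM in WT, but AROM was lower still, at 1.36 and 2.48 FPKM. The fructose transporter gene Slc2a5 was at 2.11 and 2.40 FPKM in BRCA, against 14.5 and 14.03 FPKM in WT, and the zinc and manganese transporter gene Slc39a8 at 2.13 and 2.15 FPKM, against 12.2 and 14.7 FPKM in WT. The receptor gene Mrgprg, the ubiquitin ligase-like gene Ube2ql1 and Psmc3ip, a gene of meiotic recombination, complete the 12 lowest, with log2 fold changes between -2.07 and -2.38. Psmc3ip was lower in CERM (2.39 and 2.40 FPKM) than in BRCA (3.57 and 4.65 FPKM).

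**Figure D2:**
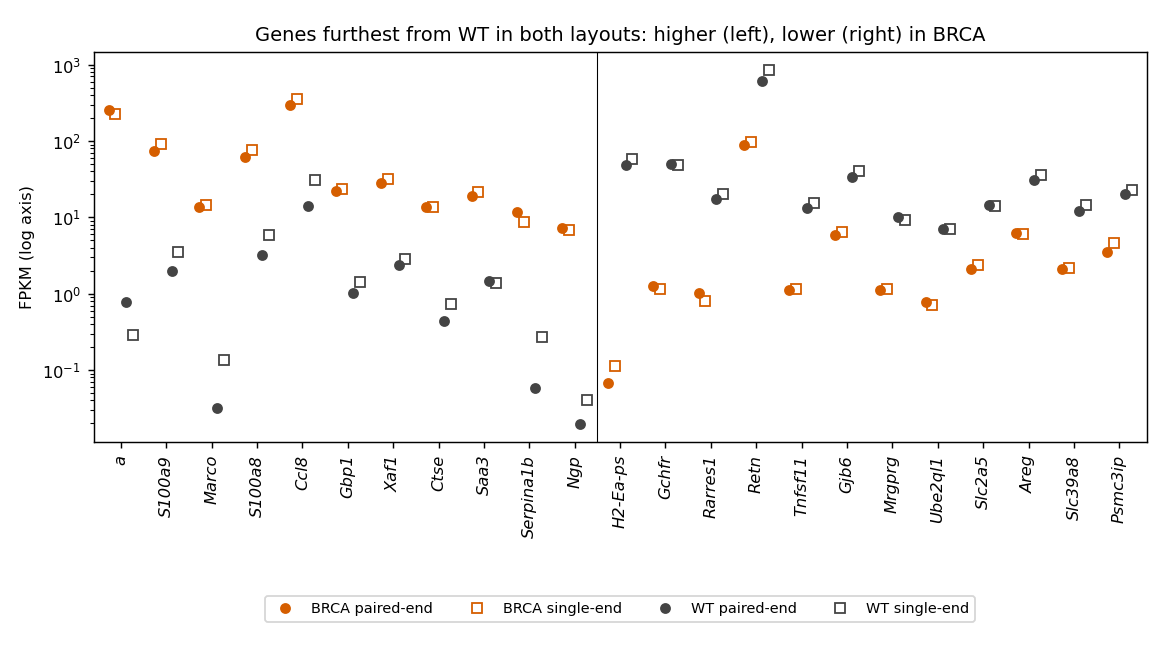
FPKM on a log axis of 11 of the 12 genes furthest above and the 12 furthest below WT in both layouts, with BRCA in orange left of WT in grey, and filled circles for paired-end and open squares for single-end columns. For each gene the BRCA points lie together and apart from both WT points, as for Retn at 87.8 and 96.7 FPKM in BRCA against 616 and 858 FPKM in WT.

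Interferon-stimulated genes were higher in BRCA in both layouts. Of 32 genes listed, 28 were analysed, of which 19 were at least 2-fold higher in both layouts, against 3.1% of all genes. A further 3 were higher in the paired-end columns only, and none was lower. The 28 had median log2 fold changes of 1.54 paired-end and 1.47 single-end. Of these 28, 5 reached 1 FPKM only in the BRCA columns, and 14 of the other 23 were higher in both layouts. BRCA was the highest of the 4 genotypes in both layouts for 24, against 34.3% of all genes. The 5 that reached 1 FPKM only in BRCA could enter only by being above WT. The promoters of 6 genes that were higher in both layouts are printed because these windows hold the core of the ISRE (GAAA, then 2 bases of any kind, then GAAA, searched on both strands, with overlapping matches joined). The sequences are from RefSeq, build GRCm38.p6, while the files use mm9. Each runs 5′ to 3′ along the gene's strand from 30 bases before the motif nearest the start site to 30 bases after it or to the base before the start site, with the motif in capitals.
Ifit1, chr19:34640774-34640843, plus strand: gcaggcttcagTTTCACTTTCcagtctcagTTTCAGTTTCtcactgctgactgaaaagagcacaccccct
Ifit3, chr19:34583377-34583446, plus strand: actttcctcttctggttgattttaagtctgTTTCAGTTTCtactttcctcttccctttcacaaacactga
Isg15, chr4:156200845-156200914, minus strand: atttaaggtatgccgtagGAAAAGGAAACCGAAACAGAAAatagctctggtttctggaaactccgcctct
Oas3, chr5:120777695-120777764, minus strand: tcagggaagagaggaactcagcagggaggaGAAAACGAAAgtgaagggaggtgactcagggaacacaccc
Bst2, chr8:71537557-71537626, minus strand: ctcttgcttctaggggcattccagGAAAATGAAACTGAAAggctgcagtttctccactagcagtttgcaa
Trim30a, chr7:104465194-104465259, minus strand: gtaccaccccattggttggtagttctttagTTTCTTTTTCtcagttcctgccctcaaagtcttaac

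The ISRE core stood in the 300 bases around the start (250 before, 50 after) of 8 of the 14 interferon-stimulated genes that were higher in both layouts and had a promoter entry (57.1%), close to the 11 of 20 (55%) of the whole list, called or not. It also stood in all 7 of the interferon gamma-inducible GTPase genes with an entry, of which 1 was higher in both layouts. It stood in 3.99% of all 27025 promoters, in 27 of 254 genes higher in both layouts (10.6%) and in 0 of 85 genes lower in both. A match is a run of letters, not a measured binding site.

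Ifit1, an antiviral RNA-binding protein gene, was at 12.6 and 13.1 FPKM in BRCA, against 1.22 and 1.45 FPKM in WT (log2 fold changes 2.61 and 2.52). Irf7, the transcription factor that amplifies interferon production, was at 38.0 and 40.3 FPKM in BRCA, against 5.78 and 7.21 FPKM in WT (2.53 and 2.33). Ifi44, an interferon-induced protein gene, was at 16.8 and 17.8 FPKM in BRCA, against 1.44 and 1.79 FPKM in WT (2.86 and 2.75). Xaf1, an interferon-induced promoter of cell death, was at 27.9 and 32.3 FPKM in BRCA, against 2.39 and 2.89 FPKM in WT (3.09 and 3.10). Oasl2, of the family that senses double-stranded RNA, was at 23.7 and 25.4 FPKM in BRCA, against 3.38 and 4.42 FPKM in WT (2.49 and 2.28). In all 5 genes neither CERM column reached the BRCA values, with Irf7 at 17.3 and 26.4 FPKM in CERM. Stat2 and Herc6 were among those past 2-fold in the paired-end columns only, but their single-end log2 fold changes were 0.91 and 0.87.

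The GTPases induced by interferon gamma moved less uniformly. Of 13 analysed, 3 were higher in both layouts, and the medians were 0.88 paired-end and 0.62 single-end. Gbp1, a guanylate-binding protein that attacks vacuoles of intracellular microbes, was at 21.9 and 23.4 FPKM in BRCA, against 1.03 and 1.42 FPKM in WT (log2 fold changes 3.50 and 3.34). Gbp7 and Irgm2 were past 2-fold only in the paired-end columns (1.04 and 1.12), with 0.79 each in the single-end ones.

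**Figure D3:**
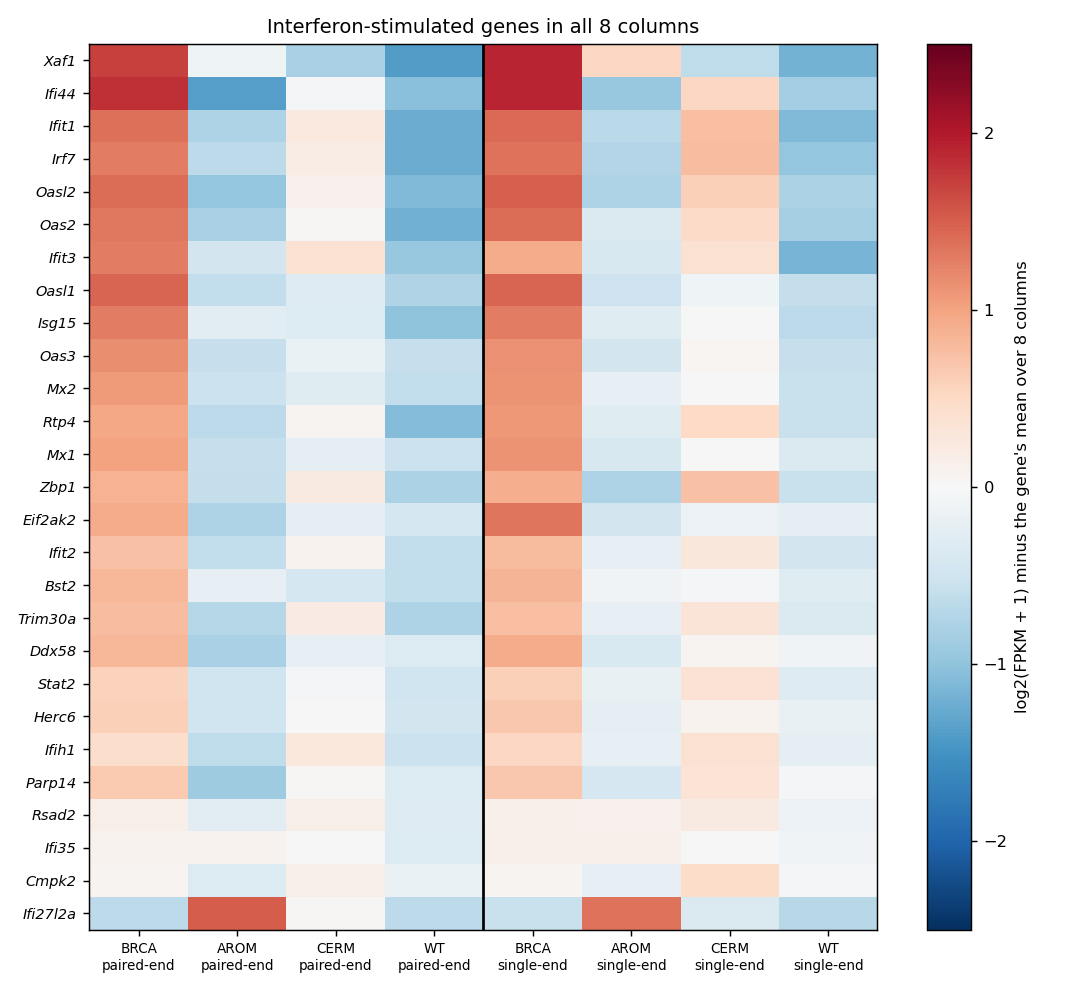
Levels of 27 of the 28 interferon-stimulated genes analysed (rows, furthest from WT at the top) in all 8 columns of the table, as log2(FPKM + 1) minus the gene's mean over the columns. Within each layout BRCA stands left and WT right, and BRCA was the highest genotype in both layouts for 24 of the genes.

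Neutrophil genes were higher in both layouts for 9 of 11 analysed (of 16 listed), against 3.1% of all genes. The medians were 1.63 paired-end and 1.41 single-end. Of these 11, 4 reached 1 FPKM only in the BRCA columns, Ngp, Retnlg and Camp among them, so they could enter only by being higher there. Among the other 7, 5 were higher, including Ltf and Lcn2, which stand in the epithelial host defence list too. Besides S100a8 and S100a9, Ngp, a granule protein gene of maturing neutrophils, was at 7.26 and 6.79 FPKM in BRCA, against 0.0195 and 0.0401 FPKM in WT. Retnlg was at 6.75 and 7.77 FPKM in BRCA, against 0.310 and 0.708 FPKM in WT. Camp, the cathelicidin gene, was at 2.95 and 3.58 FPKM in BRCA, against 0.0453 and 0.0324 FPKM in WT. Mmp9, a gelatinase stored in neutrophil granules, was past 2-fold only in the paired-end columns (log2 fold change 1.07, with 0.68 single-end). The early granule genes Elane and Mpo stayed below 1 FPKM in all 4 columns.

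B cell genes were higher in both layouts for 10 of 12 analysed, against 3.1% of all genes, with medians of 1.64 paired-end and 1.44 single-end. Here 8 of the 12 reached 1 FPKM only in the BRCA columns, Ms4a1 and Fcer2a among them, and 3 of the other 4 were higher in both layouts. Cd79a, a signalling chain of the B cell receptor, was at 15.5 and 16.003 FPKM in BRCA, against 1.57 and 2.40 FPKM in WT (log2 fold changes 2.69 and 2.32). Ms4a1, which encodes CD20, was at 6.21 and 6.83 FPKM in BRCA, against 0.264 and 0.652 FPKM in WT (2.51 and 2.24). Cd79b was at 12.9 and 13.2 FPKM in BRCA, against 1.86 and 2.37 FPKM in WT. Fcer2a, the low-affinity IgE receptor of mature B cells, was at 2.55 and 2.88 FPKM in BRCA, against 0.0745 and 0.0788 FPKM in WT. For 11 of the 12 genes BRCA was the highest genotype in both layouts, against 34.3% of all genes. However, 8 of the 12 could enter only by being above WT. Of 7 plasma cell genes 3 were higher in both: Igj, the antibody joining chain gene, Derl3 and Pou2af1. Igj was at 206 and 223 FPKM in BRCA, against 81.8 and 100.4 FPKM in WT.

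T cell genes moved less, with 4 of 13 higher in both layouts, against 3.1% of all genes, and medians of 0.96 and 0.83. Of these 13, 4 reached 1 FPKM only in the BRCA columns, and 3 of the other 9 were higher. Il7r, the interleukin 7 receptor, was at 5.08 and 5.50 FPKM in BRCA, against 0.910 and 1.22 FPKM in WT. Lck, the kinase of T cell receptor signalling, was at 8.14 and 8.70 FPKM in BRCA, against 2.53 and 3.39 FPKM in WT. Cd3d and Cd247 lay at the edge, past 2-fold paired-end (log2 fold changes 1.03 and 1.01) and just short of it single-end (0.96 and 0.99). Of 7 cytotoxic lymphocyte genes, Gzmb and Ccl5 were higher in both layouts, but 3 of the 7, Gzmb among them, reached 1 FPKM only in the BRCA columns. Ccl5 was at 64.6 and 68.8 FPKM in BRCA, against 25.2 and 27.7 FPKM in WT.

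Lymph node stroma genes were split. Of 3 analysed, Cxcl13, the chemokine that draws B cells into follicles, was at 13.4 and 15.2 FPKM in BRCA, against 1.56 and 2.59 FPKM in WT. Madcam1, a vascular addressin, was at 1.35 and 1.47 FPKM in BRCA, against 8.06 and 10.2 FPKM in WT. Glycam1, which mammary epithelium makes as well, was not 2-fold apart (0.03 and -0.02). The split held against WT only. Against the median of the other 3 genotypes 2 of the 3 were higher in both layouts and 0 lower, with medians of 2.10 and 2.02. The sum of the 3 ranged from 473 to 529 FPKM in BRCA and from 460 to 531 FPKM in WT and was nearly all Glycam1. Whether lymph node tissue differed between the dissected glands was not tested.

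Macrophage genes were higher in both layouts for 6 of 19, against 3.1% of all genes, and 3 more only in the paired-end columns. The medians were 0.94 paired-end and 0.55 single-end. Marco reached 1 FPKM only in the BRCA columns, and 5 of the other 18 were higher in both. BRCA was the highest genotype in both layouts for 8 of the 19, against 34.3% of all genes. Against the median of the other 3 genotypes 4 were higher in both. Besides Marco, Fcgr1, the high-affinity IgG receptor, was at 5.81 and 5.17 FPKM in BRCA, against 0.637 and 1.25 FPKM in WT (log2 fold changes 2.06 and 1.45). Itgam, the CD11b integrin, was at 7.95 and 7.83 FPKM in BRCA, against 1.71 and 2.22 FPKM in WT, and at 8.83 FPKM in paired-end CERM. Mrc1, the mannose receptor of tissue macrophages, was at 21.4 and 22.7 FPKM in BRCA, against 6.60 and 9.44 FPKM in WT. In 18 of the 19 genes the WT columns differed more between layouts than the BRCA columns did, against 79.1% of all genes. Mpeg1, among the 19, was listed at 0 in both paired-end columns. Of 11 dendritic cell genes 5 were higher in both layouts and 1 lower, but 3 reached 1 FPKM only in the BRCA columns and the lower one, Cd209a, only in the WT columns. Of the other 7, 3 were higher and 0 lower. Ccr7, which guides dendritic cells and lymphocytes to lymph nodes, was at 5.71 and 5.70 FPKM in BRCA, against 0.427 and 0.771 FPKM in WT. Cd209a, a lectin of monocyte-derived dendritic cells, was at 0.454 and 0.404 FPKM in BRCA, against 3.04 and 4.85 FPKM in WT. Mast cell genes were higher in both layouts for 3 of 7, among them the tryptase gene Tpsab1 at 4.72 and 4.59 FPKM in BRCA, against 0.246 and 0.663 FPKM in WT. Tpsab1 reached 1 FPKM only in the BRCA columns, and 2 of the other 6 were higher in both layouts.

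The MHC class II genes, which present peptides to CD4 T cells, held in part. Of 7 analysed, 4 were higher in both layouts and 6 in the paired-end columns, against 3.1% and 5.13% of all genes. The medians were 1.65 and 1.20. H2-Eb1 was at 231 and 222 FPKM in BRCA, against 50.7 and 50.6 FPKM in WT (log2 fold changes 2.16 and 2.11), and H2-Ab1 at 322 and 299 FPKM, against 81.7 and 101 FPKM in WT. H2-Aa was at 339 and 262 FPKM in BRCA, against 119 and 184 FPKM in WT, and was past 2-fold only paired-end (1.51, with 0.51 single-end). CERM held as much H2-Aa as BRCA, at 345 and 291 FPKM. Cd74, the invariant chain, was at 813 and 878 FPKM in BRCA, against 275 and 456 FPKM in WT (1.56 and 0.94). None of 14 MHC class I and antigen processing genes was higher in both layouts, and the transporter gene Tap1 was higher paired-end only (1.09, with 0.68 single-end).

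Of 20 CC and CXC chemokine genes 7 were higher in both layouts, against 3.1% of all genes, with medians of 0.92 paired-end and 1.02 single-end. Besides Ccl8, Ccl12, a monocyte chemokine, was at 7.38 and 8.69 FPKM in BRCA, against 0.531 and 1.51 FPKM in WT. Ccl22, which attracts regulatory T cells, was at 6.21 and 6.30 FPKM in BRCA, against 0.917 and 1.64 FPKM in WT. Ccl17, Ccl20 and Cxcl1 passed 2-fold only single-end (1.16, 1.07 and 1.07, with 0.87, 0.85 and 0.94 paired-end). Among 19 interleukin genes and their receptors, with Ido1, the higher ones were Il1b, Il33 and Ido1, which encodes a tryptophan-degrading enzyme. Of the 19, 3 reached 1 FPKM only in the BRCA columns, Il1b and Ido1 among them, and 1 of the other 16 was higher. Il1b was at 4.94 and 5.73 FPKM in BRCA, against 0.701 and 0.783 FPKM in WT.

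Acute phase and epithelial host defence genes were higher in both layouts for 11 of 18 and lower for 1, against 3.1% and 1.02% of all genes. The medians were 1.37 and 1.12. Of these 18, 2 reached 1 FPKM only in the BRCA columns, and 10 of the other 16 were higher in both layouts. Saa3, the serum amyloid A made outside the liver, was at 18.9 and 21.7 FPKM in BRCA, against 1.46 and 1.39 FPKM in WT (log2 fold changes 3.02 and 3.25). Saa1 was at 26.1 and 26.3 FPKM in BRCA, against 3.28 and 3.46 FPKM in WT, and at 15.4 and 24.0 FPKM in CERM. Hp, the haemoglobin scavenger haptoglobin, was at 623 and 630.0 FPKM in BRCA, against 163 and 183 FPKM in WT, and at 431 and 189 FPKM in AROM. Ltf and Lcn2, which withhold iron from bacteria and stand in the neutrophil list too, were also higher, with Lcn2 at 467 and 543 FPKM in BRCA, against 185 and 241 FPKM in WT. The antimicrobial peptide gene Defb1 was lower, at 2.88 and 2.84 FPKM in BRCA, against 7.81 and 9.48 FPKM in WT. Orm1 was past 2-fold lower only single-end (-1.03, with -0.76 paired-end). Of 12 complement genes 4 were higher in both layouts, against 3.1% of all genes, and 3 more paired-end only.

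**Figure D4:**
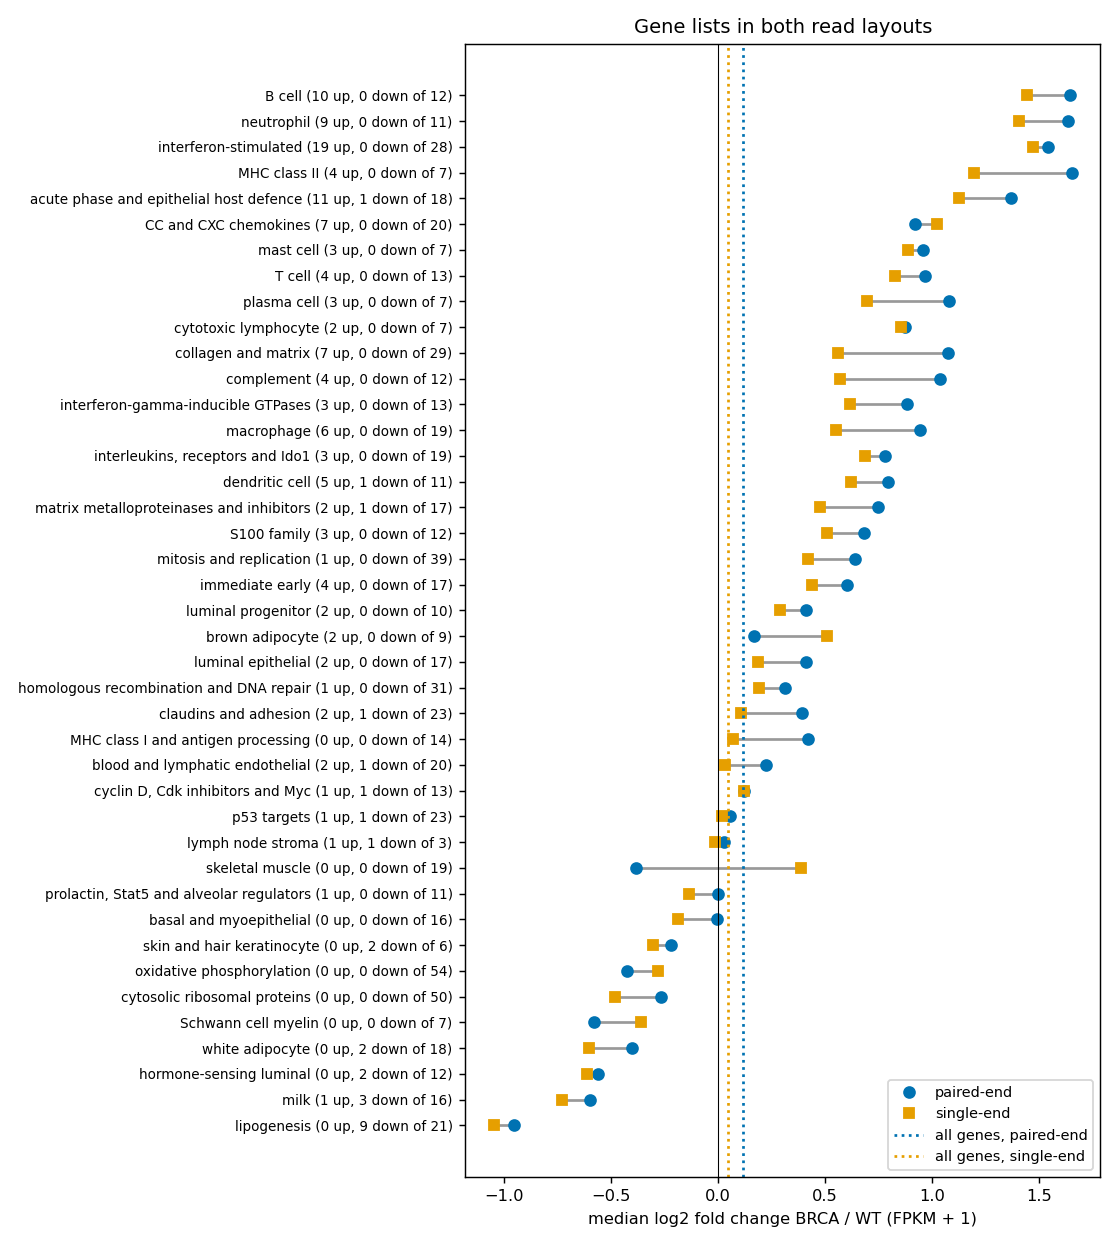
Median log2 fold change of FPKM + 1, BRCA over WT, of each gene list with at least 3 genes analysed, with circles for the paired-end and squares for the single-end columns. Beside each name stand the members past 2-fold higher (up) and lower (down) in both layouts, dotted lines mark the medians of all genes (0.11 and 0.05), and skeletal muscle is the list whose 2 medians lie furthest apart.

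Of 31 genes of homologous recombination and DNA repair, Brca1 itself was the only one past 2-fold in both layouts, where 3.1% of all genes were higher and 1.02% lower, and the medians were 0.31 and 0.19. Chek1, a checkpoint kinase, had log2 fold changes of 0.69 and 0.73. Ercc2, a helicase of nucleotide excision repair, was past 2-fold lower single-end only, at 4.79 FPKM in BRCA against 40.3 FPKM in WT, where the paired-end values were 4.50 and 7.61 FPKM. Of 23 p53 targets 1 was higher in both layouts and 1 lower, where 3.1% of all genes were higher and 1.02% lower. The list medians were 0.05 and 0.02. Pmaip1, the cell death gene also called Noxa, was the higher one (1.17 and 1.11, but 0.94 and 0.93 after quantile normalization). Phlda3, an Akt inhibitor, was the lower one (-1.25 and -1.54). Phlda3 was at 56.1 and 51.5 FPKM in BRCA, against 135 and 152 FPKM in WT. Cdkn1a and Mdm2, the classical p53 targets, were not 2-fold apart (-0.31 and -0.40 for Cdkn1a, -0.20 and -0.19 for Mdm2).

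Cdkn2a, the locus of the p16 and p19ARF tumour suppressors, was at 7.18 and 8.14 FPKM in BRCA, against 0.755 and 0.826 FPKM in WT (log2 fold changes 2.22 and 2.32). AROM and CERM lay between 0.413 and 0.780 FPKM. Cdkn2c, the p18 inhibitor of cyclin D kinases, was lower, at 38.3 and 40.9 FPKM in BRCA, against 81.8 and 94.0 FPKM in WT. In the list of 13 cyclin D, Cdk inhibitor and Myc genes these were the calls made in both layouts, and Cdkn2a reached 1 FPKM only in the BRCA columns. Of 39 mitosis and replication genes 1 was past 2-fold in both layouts, where 3.1% of all genes were higher and 1.02% lower. It was Top2a, the topoisomerase of dividing cells, at 16.02 and 16.99 FPKM in BRCA, against 5.60 and 7.40 FPKM in WT. Small positive values were frequent in this list: 39 were above 0 paired-end and 34 single-end, and the medians were 0.64 and 0.42. BRCA was the highest genotype in both layouts for 34 of the 39, against 34.3% of all genes. Birc5, which encodes survivin, was past 2-fold paired-end only (1.30, with 0.86 single-end).

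Epithelial lineage genes differed little from WT as groups. Against the median of the other 3 genotypes, the medians were 0.95 and 0.70 for luminal epithelial genes and 0.88 and 0.51 for luminal progenitor genes. For basal and myoepithelial genes they were 0.05 and -0.11. Of 17 luminal epithelial genes 2 were higher in both layouts, with medians of 0.41 and 0.19. Cldn4, a tight junction claudin, was at 55.9 and 54.9 FPKM in BRCA, against 15.4 and 18.5 FPKM in WT (log2 fold changes 1.79 and 1.52), and Prom1 at 6.03 and 6.44 FPKM, against 1.97 and 2.26 FPKM in WT. The general luminal keratin Krt8 was not 2-fold apart (0.30 paired-end, below 0.01 in size single-end). Of 10 luminal progenitor genes 2 were higher, the GABA receptor subunit gene Gabrp, at 10.7 and 11.2 FPKM in BRCA against 4.03 and 5.04 FPKM in WT, and the cytokine gene Lif, which reached 1 FPKM only in the BRCA columns. Neither was past 2-fold single-end after median-ratio scaling (0.97 for Gabrp, 0.997 for Lif) or quantile normalization (0.93 and 0.80). None of 16 basal and myoepithelial genes was past 2-fold in both layouts. Itgb4, the integrin of hemidesmosomes, was higher paired-end only (1.10, with 0.92 single-end), and Oxtr, the oxytocin receptor, lower single-end only (-1.23, with -0.87 paired-end).

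Of 12 hormone-sensing luminal genes, Areg and Tnfsf11 were lower in both layouts, and the medians were -0.56 and -0.61. BRCA was the lowest genotype in both layouts for 8. Cited1, a coactivator of estrogen receptor, and Cxcl15 were past 2-fold single-end only (-1.19 and -1.17, with -0.93 and -0.92 paired-end). Gata3, a luminal transcription factor, had -0.78 and -0.94.

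Milk genes were mixed. Of 16 analysed, 3 were lower in both layouts and 1 higher. Lalba, which directs lactose synthesis, was at 43.1 and 46.3 FPKM in BRCA, against 119 and 113 FPKM in WT (log2 fold changes -1.45 and -1.27). Btn1a1, the butyrophilin of milk fat globules, was at 17.5 and 18.3 FPKM in BRCA, against 46.5 and 47.0 FPKM in WT. Csn1s2a, a casein gene, was at 1996 and 2153 FPKM in BRCA, against 3994 and 5103 FPKM in WT. Csn1s2b, the neighbouring casein gene, was at 12.5 and 13.7 FPKM in BRCA, against 1.27 and 1.54 FPKM in WT (2.57 and 2.54).

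Genes of fatty acid synthesis were the list with the lowest medians, -0.96 paired-end and -1.05 single-end. Of 21 lipogenesis genes 9 were lower in both layouts, against 1.02% of all genes, and none was higher. BRCA was the lowest genotype in both layouts for 16, against 17.5% of all genes. Elovl6, a fatty acid elongase gene, was at 46.0 and 46.7 FPKM in BRCA, against 151 and 143 FPKM in WT (log2 fold changes -1.69 and -1.59). Acly, which makes cytosolic acetyl-CoA, was at 182 and 185 FPKM in BRCA, against 465 and 498 FPKM in WT. Pnpla3, a lipase of lipid droplets, was at 20.6 FPKM in both BRCA columns, against 56.2 and 62.4 FPKM in WT. Scd2, a fatty acid desaturase gene, was at 29.9 FPKM in both BRCA columns, against 76.2 and 83.7 FPKM in WT. Thrsp, a lipogenic nuclear protein gene, was at 726 and 785 FPKM in BRCA, against 1714 and 1945 FPKM in WT. Against the median of the other 3 genotypes 3 of the 21 were lower in both layouts, with medians of -0.90 and -0.77. In CERM, for example, Acly was at 224 and 343 FPKM.

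The general fat cell markers moved less. Of 18 white adipocyte genes 2 were lower in both layouts, Retn and Adrb3, the receptor through which catecholamines release fat. Adrb3 was at 28.6 and 29.1 FPKM in BRCA, against 84.4 and 84.1 FPKM in WT. The list medians were -0.41 and -0.60, the summed level was 11011 and 11752 FPKM in BRCA, against 14195 and 18207 FPKM in WT, and BRCA was the lowest genotype in both layouts for 13. Adipoq, the adiponectin gene, had log2 fold changes of -0.39 and -0.72. None of 54 oxidative phosphorylation genes and none of 50 cytosolic ribosomal protein genes was 2-fold apart in either layout, but 52 and 49 of them were below 0 in both. Of 6 skin and hair keratinocyte genes Krt77 and Krtdap were lower in both layouts, with Krtdap at 1.43 and 1.40 FPKM in BRCA, against 12.03 and 9.04 FPKM in WT. The part of skin and fat content in the differences was not tested.

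Collagen and matrix genes were higher in both layouts for 7 of 29, against 3.1% of all genes, but 17 passed 2-fold in the paired-end columns. All 29 were above 0 in both, and the medians were 1.07 paired-end and 0.56 single-end. Col3a1, a fibrillar collagen gene, was at 469 and 478 FPKM in BRCA, against 125 and 224 FPKM in WT (log2 fold changes 1.90 and 1.09). Col12a1 was at 5.60 and 5.65 FPKM in BRCA, against 1.00 and 1.46 FPKM in WT (1.72 and 1.43). Fn1, the fibronectin gene, was at 67.4 and 66.9 FPKM in BRCA, against 22.6 and 29.4 FPKM in WT. Col1a1 was past 2-fold paired-end only, at 160 FPKM in BRCA against 64.6 FPKM in WT, where the single-end values were 154 and 104 FPKM. The matrix protein gene Postn likewise was at 169 FPKM in BRCA against 54.5 FPKM in WT paired-end, and at 178 against 107 FPKM single-end. In all 29 genes the WT columns differed more between layouts than the BRCA columns did, against 79.1% of all genes. The median paired-end minus single-end difference was -0.00087 in BRCA and -0.37 in WT. Against the median of the other 3 genotypes 3 of the 29 were higher in both layouts. Of 17 matrix metalloproteinase and inhibitor genes, the collagenase Mmp13 and the inhibitor Timp1 were higher in both layouts and Timp4 lower. Mmp13 reached 1 FPKM only in the BRCA columns. Timp1 was below 2-fold single-end after median-ratio scaling (0.96) and quantile normalization (0.95), and Mmp13 paired-end after quantile normalization (0.84).

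Of 20 blood and lymphatic endothelial genes 2 were higher in both layouts and 1 lower, and none against the median of the other 3 genotypes. Of all genes 3.1% were higher in both layouts and 1.02% lower. Lyve1, the hyaluronan receptor of lymphatic endothelium and some macrophages, was at 12.5 and 13.8 FPKM in BRCA, against 2.25 and 2.67 FPKM in WT (log2 fold changes 2.06 and 2.01). Selp, the P-selectin of activated vessels, was the other higher gene, and Cldn5, the tight junction claudin of endothelium, was lower, at 15.4 and 14.8 FPKM in BRCA, against 39.3 and 46.0 FPKM in WT. Of 23 claudin and adhesion genes Cldn1 and Cldn4 were higher and Cldn5 lower, and of 12 S100 genes 3 were higher, S100a3 besides S100a8 and S100a9. Among 17 immediate early genes 4 were higher, Atf3, Ctgf, Cyr61 and Ier3, with Atf3, a stress-induced transcription factor gene, at 15.5 and 16.6 FPKM in BRCA, against 3.56 and 4.46 FPKM in WT. Socs3, a feedback inhibitor of cytokine signalling, was the call among 11 prolactin, Stat5 and alveolar genes, at 13.4 and 13.6 FPKM in BRCA, against 3.77 and 3.93 FPKM in WT. Of 9 brown adipocyte genes Dio2 and Elovl3 were higher, though Elovl3 lay below the median of the other 3 genotypes (-0.20 and -0.038) and neither was past 2-fold in both layouts after quantile normalization, and none of 7 Schwann cell myelin genes was 2-fold apart. Alas2, the only erythroid gene analysed, was past 2-fold paired-end only (1.25, with 0.55 single-end).

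The skeletal muscle genes changed direction against WT between layouts. Their median log2 fold change was -0.38 paired-end and 0.39 single-end. Above 0 were 18 of 19 single-end and 6 paired-end, and none was past 2-fold in both. Against the median of the other 3 genotypes the medians did not change direction, at -0.53 paired-end and -1.07 single-end. Acta1, the skeletal actin gene, was at 3999 and 3975 FPKM in BRCA, against 5661 and 3249.5 FPKM in WT. Myh4, a fast myosin heavy chain gene, was past 2-fold higher single-end only (1.45, with 0.74 paired-end), at 1129.9 and 1061 FPKM in BRCA, against 675 and 387 FPKM in WT. Ttn, Neb, Mybpc2 and Ryr1 were past 2-fold higher single-end only as well, and Mb, the myoglobin gene, lower paired-end only (-1.04, with -0.24 single-end). In all 19 genes WT moved more than BRCA between layouts, against 79.1% of all genes. The median paired-end minus single-end difference was -0.05 in BRCA and 0.71 in WT. All but 1 of the brown adipocyte genes analysed also moved more in WT than in BRCA, and their medians were 0.17 paired-end and 0.51 single-end.

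**Figure D5:**
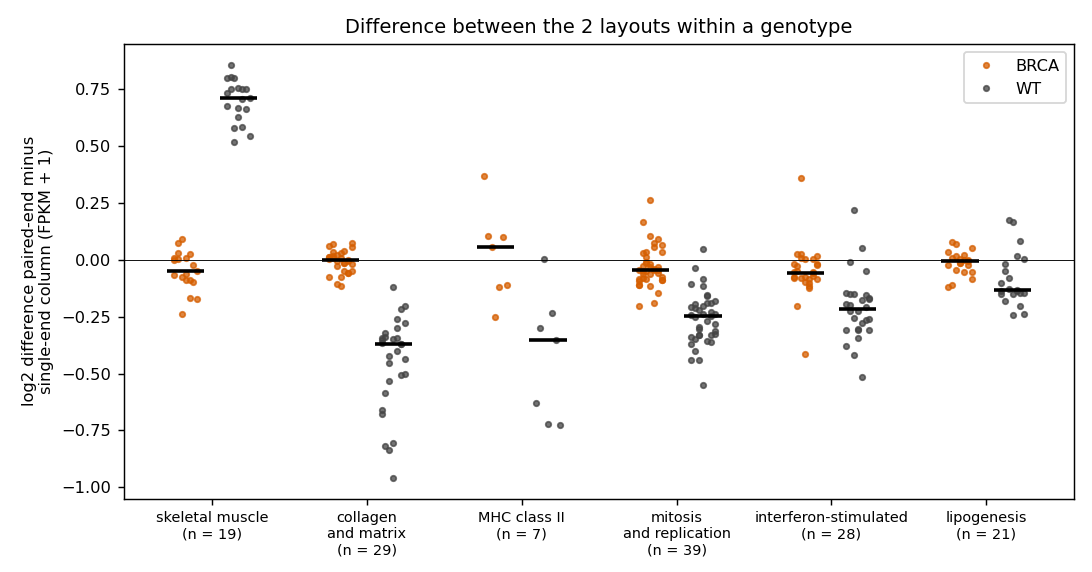
Difference between the paired-end and the single-end column of the same genotype, as log2(FPKM + 1), for the genes of 6 lists, with BRCA (orange) left of WT (grey), 1 point a gene and a bar at the median. BRCA medians lie near 0 in every list, while the WT medians are 0.71 in skeletal muscle and -0.37 in collagen and matrix. Single BRCA points lie further out, as H2-Aa at 0.37 in MHC class II.

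Over all genes the WT columns also differed more between layouts. The median size of the difference between layouts was 0.06 log2 units in BRCA and 0.16 in WT, and WT moved more than BRCA in 9428 of the 11920 genes (79.1%). The oxidative phosphorylation genes ran the other way, with WT moving more in 15 of 54 (27.8%) and median sizes of 0.111 in BRCA and 0.077 in WT. Differences past 2-fold between layouts were rare in either genotype: paired-end was higher for 77 genes (0.646%) and lower for 84 (0.705%) in BRCA, and higher for 74 (0.621%) and lower for 117 (0.982%) in WT. Among the 272 genes past 2-fold paired-end only (2.28% of all) WT moved more in 244, and among the 145 past it single-end only (1.22%) in 116. Most of these genes fell on the same side of 0 in the other layout: 236 of 239 higher (2.01% of all) and 31 of 33 lower (0.277%) paired-end only, and 47 of 55 higher (0.461%) and 76 of 90 lower (0.755%) single-end only. The median log2 fold change in the other layout was 0.83 for the 239 and -0.81 for the 90. Why the WT columns differ was not tested.

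Among the single genes furthest apart between layouts, Tsr1, a ribosome maturation gene, was at 8.29 and 11.9 FPKM in BRCA, against 6.02 and 592 FPKM in WT (log2 fold changes 0.40 and -5.53). Hipk3, a kinase gene, was at 26.5 and 28.0 FPKM in BRCA, against 20.4 and 149 FPKM in WT, and Prmt2, an arginine methyltransferase gene, at 10.3 and 10.6 FPKM, against 8.68 and 49.2 FPKM in WT. In the kinase gene Irak1 and in Glce, a gene of heparan sulfate synthesis, the single-end BRCA value stood apart instead. Irak1 was at 27.8 and 173 FPKM in BRCA, against 21.5 and 22.9 FPKM in WT, and Glce at 6.62 and 48.7 FPKM, against 4.95 and 5.94 FPKM in WT. Map3k15 differed between layouts in both genotypes, at 13.3 and 4.97 FPKM in BRCA, against 15.1 and 62.1 FPKM in WT.

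Of the genes past 2-fold paired-end only, H2-Q6, a class Ib MHC gene with near-identical copies that may share reads, was at 31.7 and 28.8 FPKM in BRCA, against 0.262 and 15.0 FPKM in WT (log2 fold changes 4.70 and 0.90). Apba3, an adaptor protein gene, was at 166 and 26.1 FPKM in BRCA, against 22.1 and 19.8 FPKM in WT. The interferon-inducible gene Mnda was at 10.3 and 13.1 FPKM in BRCA, against 1.47 and 8.87 FPKM in WT. Scg3, a secretory granule protein gene, was at 16.1 and 16.99 FPKM in BRCA, against 4.31 and 9.40 FPKM in WT. Tmem179 was at 6.02 and 0.275 FPKM in BRCA, against 13.5 and 0.188 FPKM in WT, so that both genotypes differed between layouts.

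Listed values of 0 add to the failures. Among the 11920 genes, 78 had a listed 0 in 1 or more of the 4 columns. Ncl, the nucleolin gene that every dividing cell uses, was at 142 and 139 FPKM in BRCA, against 107 FPKM paired-end and a listed 0 single-end in WT. Tmem183a, Sema4a and Usp24 were listed at 0 in the paired-end WT column and lay between 5.77 and 20.1 FPKM in the other 3. Psap, the gene of a lysosomal activator protein, was listed at 0 in both paired-end columns and was at 651 FPKM in BRCA and 681 FPKM in WT single-end. A log2 fold change against a listed 0 rests on the added 1 FPKM and is no ratio. Ctsr, a cathepsin gene, was listed at 0 in both WT columns and was at 9.33 and 10.7 FPKM in BRCA.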

How the data were processed

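Polyadenylated RNA of whole mammary glands was sequenced on an Illumina instrument by single-end and paired-end methods, per the labels' protocols. The submitters' processing notes name build mm9 and the tools FastQC, Trim Galore, TopHat and Cufflinks, with versions not given in the sources used here. Values are FPKM, deposited by the authors in 1 table with 1 pooled column for each genotype and layout, and these were used as deposited. Depth, counting error and strand handling are unknown, and copies of a gene may share reads.

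Log2(FPKM + 1) of BRCA minus WT was computed within each layout (pseudocount 1, minimum 1 FPKM in 2 of 4 columns, call at 2-fold) with Python 3.11.15, pandas 2.3.3 and numpy 2.4.6, and figures with matplotlib 3.10.9. The rule was tested on simulated data. No test between genotypes was possible with 1 column each. Of the loci, 8119 had no name, 585 had several symbols and 1719 shared one, and these were left out. The members and 42 gene lists were chosen with earlier results of these data known.

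Named genes were Brca1, Trp53, Esr1 and Pgr, the 12 furthest each way in both layouts by the smaller log2 fold change, opposite calls, the 6 furthest apart called in 1 layout only, up to 5 members of each list described, members called in 1 layout only, and genes listed at 0 in 1 column and over 10 FPKM in another. Names without a known identity and, among the furthest genes, those listed at 0 in any of the 4 columns were not ranked, and some named genes are not reported here. Other genes named were chosen after their values were seen. Alternatives tried were pseudocount 0.1, no minimum, a minimum in all 4 columns, median-ratio scaling, quantile normalization and the WT column of the other layout. The median of the 3 other genotypes as the comparison was added after seeing the data.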

Additional observations from a re-analysis of the deposited data

Results flagged for a closer look

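In 3 loci BRCA was past 2-fold from WT in opposite ways in the layouts, and this difference was not tested. All are loci of small or unknown RNAs. LOC100302567 had log2 fold changes of -7.73 paired-end and 1.79 single-end, from 0 and 68.96 FPKM in BRCA, against 212 and 19.2 FPKM in WT. Snord47, a small nucleolar RNA, had 1.24 paired-end and -3.62 single-end, from 5468 and 86.5 FPKM in BRCA, against 2319 and 1076 FPKM in WT. Mir682, annotated as a microRNA, had 6.04 paired-end and -2.77 single-end, from 65.0 and 8.15 FPKM in BRCA, against 0 and 61.5 FPKM in WT. The paired-end values of LOC100302567 and Mir682 are set against a listed 0, rest on the added 1 FPKM and are no ratio. FPKM of such short loci depend strongly on the length assigned to them, and their part here was not tested.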

How the results depend on the processing

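Of 11920 genes, 370 higher and 122 lower in both layouts became 628 and 188 with pseudocount 0.1, which also gave 979 higher and 244 lower paired-end and 713 higher single-end. A minimum of 1 FPKM in all 4 columns gave 220 higher in both layouts, 400 higher paired-end and 257 higher single-end. Quantile normalization gave 391 higher paired-end. With the WT column of the other layout, 297 were lower paired-end and 733 higher single-end. The other counts of higher or lower genes lay within 1.5 times their main value. Opposite calls were 3, but 113 with the WT column of the other layout, 5 against the median of the 3 other genotypes and 1 with a minimum in all 4 columns. That WT column turned the sign of Tmem179 paired-end (2.56) and of Tsr1 (0.87), Hipk3 (0.43), Prmt2 (0.26), Gpaa1 (2.19) and Rnu73b (7.10) single-end, of which Gpaa1 and Rnu73b stand against a listed 0 and are no ratio. It also turned the skeletal muscle medians, to 0.41 paired-end and -0.34 single-end. Against the median of the 3 other genotypes, Elovl3 (-0.20 paired-end, -0.038 single-end) and Nrap (-0.090 single-end) turned. So did the paired-end milk median (0.20) and the single-end skeletal muscle median (-1.07). Genes higher in both layouts became 9 of the T cell, 11 of the chemokine and 5 of the interleukin list with pseudocount 0.1, and 2 of the immediate early list with median-ratio scaling or quantile normalization. Quantile normalization left 5 lipogenesis genes lower in both layouts, and gave 5 lower hormone-sensing genes in place of 2 (4 with median-ratio scaling). A minimum of 1 FPKM in all 4 columns left 4 neutrophil, 3 B cell, 2 T cell and 2 dendritic cell genes higher in both. The causes were not tested. Median-ratio scaling brought the median of all genes to -0.0069 paired-end and 0.00061 single-end, with 313 of the 370 higher and all 122 lower genes still called. Quantile normalization kept 255 and 112 of them, and the median of the 3 other genotypes 277 and 67. No paired analysis was possible because the columns hold pooled values, and leaving out each replicate could not be run for the same reason. By the labels the paired-end WT column stands for 1 library, but its values carry repeating decimals, as means of 3 values do. Low genes are the least certain, since depth is unknown.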

Other observations

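The families that follow were chosen after their values were seen, and carry no test. Over all genes analysed, 3.1% were higher in both layouts and 1.02% lower. Of 38 Wnt pathway genes analysed, 9 were at least 2-fold higher in BRCA in both layouts and 1 lower. Wnt1, the ligand gene first found at insertion sites of mouse mammary tumour virus, was at 2.53 and 2.27 FPKM in BRCA (paired-end first, then single-end), against 0.0526 and 0.0579 FPKM in WT. Lef1, a nuclear factor of the pathway, was at 2.60 and 3.21 FPKM in BRCA, against 0.137 and 0.202 FPKM in WT. Wnt1 and Lef1 reached 1 FPKM only in the BRCA columns, so they could enter only by being higher there. The secreted antagonists Sfrp1, Sfrp2 and Sfrp4 were higher as well, with Sfrp4 at 13.4 FPKM in both BRCA columns, against 3.44 and 4.19 FPKM in WT. Tcf7, which T cells also express, was at 11.6 and 12.2 FPKM in BRCA, against 3.05 and 3.78 FPKM in WT. Rspo1, a secreted amplifier of Wnt signals, was lower, at 28.9 and 29.1 FPKM in BRCA, against 61.2 and 69.3 FPKM in WT.

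Of 12 NADPH oxidase genes analysed, 5 that phagocytes use were higher in both layouts. Cybb, the catalytic subunit gene, was at 16.5 and 16.6 FPKM in BRCA, against 4.81 and 6.71 FPKM in WT. The epithelial dual oxidase gene Duox2 and the maturation factor gene Duoxa1 were lower, with Duoxa1 at 1.42 and 1.44 FPKM in BRCA, against 7.47 and 7.39 FPKM in WT. Duox2 reached 1 FPKM only in the WT columns. Of 15 endoplasmic reticulum chaperone genes 2 were higher in both layouts, with medians of 0.85 and 0.71. Of 14 circadian clock genes Per1 and Per2 were higher, with Per1 at 13.95 and 13.6 FPKM in BRCA, against 4.96 and 5.44 FPKM in WT. Of 20 cholesterol synthesis genes 3 were lower, with Sc5d at 20.3 and 19.9 FPKM in BRCA, against 46.8 and 56.2 FPKM in WT.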
